A study of Mus musculus with 18 samples.

Results

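Gdf11, Nr6a1, Lin28a, Lin28b, Sall4, Acvr2b and Tgfbr1 are regulators of the change from trunk to tail formation in the mouse embryo. They were taken from the table of 53465 gene identifiers by matching symbols to Ensembl identifiers of the mouse build GRCm38, and 7 of 7 were found. All 7 passed the filter on low counts in every comparison. RNA had been sequenced from 9 embryos at embryonic day 9, 5 of them controls and 4 DKO embryos, in which Meis1 and Meis2 were deleted conditionally with Delta1Cre, a Cre recombinase driven by Delta1 (Dll1). The labels give no further genotype or strain for the controls. Each embryo gave a posterior piece (the axial bud with the 10 to 12 newest somites) and an anterior piece (the rest of the axis that carries somites). This makes 18 libraries in 4 groups, with n = 5 for each control group and n = 4 for each DKO group. Somite numbers were 23, 20, 24, 21 and 23 in control embryos 1 to 5, and 22, 24, 20 and 23 in DKO embryos 1 to 4.

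As the body axis lengthens, progenitors in the axial bud first lay down the trunk and then the tail. GDF11, a secreted ligand of the TGF-beta superfamily, acts through type II activin receptors such as ACVR2B and type I receptors such as TGFBR1 and promotes the passage from trunk to tail. NR6A1, an orphan nuclear receptor, is required for trunk development and is antagonised by GDF11 signalling. LIN28A and LIN28B are RNA-binding proteins that block maturation of the let-7 microRNAs and favour continued axial progenitor activity, and let-7 in turn represses many growth and stem cell transcripts. SALL4 is a zinc finger transcription factor of stem cells and axial progenitors.

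Total expected counts ranged from 12.7 to 38.2 M (megacounts) per library, and the floor of 3 counts was worth 0.0790 to 0.233 CPM (counts per megacount, TMM-scaled). The members lay far above this, with counts from 538 (Gdf11) to 18173 (Lin28a). The targeted genes had lower mean levels in the DKO embryos without passing the test. Anterior Meis1 was 113 to 135 CPM in controls and 89.7 to 111 CPM in DKO (log2 fold change −0.30, adjusted p = 0.123), and anterior Meis2 was 177 to 203 against 130.3 to 157 CPM (−0.41, adjusted p = 0.0522). Posterior Meis1 was 59.6 to 99.8 against 46.7 to 71.9 CPM (−0.55, adjusted p = 0.336) and posterior Meis2 117 to 162 against 91.1 to 116 CPM (−0.52, adjusted p = 0.196). Counts summed over a whole gene cannot single out a deleted exon, so they check the DKO label only in part. Control embryo 1 was labelled female but carried Y-linked RNA in both libraries. The 9 axial bud markers summed to 27.2 to 38.6 CPM in anterior and 323 to 604 CPM in posterior libraries, and the 8 markers of differentiating somites to 144 to 219.96 and 61.3 to 115 CPM. The pieces therefore matched their labels.

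The genes lie at the following places in GRCm38 (GENCODE M21). The ligand gene Gdf11 (ENSMUSG00000025352) is at chr10:128882295-128891718 on the minus strand. Of the receptor genes, Acvr2b (ENSMUSG00000061393) is at chr9:119402118-119434995 and Tgfbr1 (ENSMUSG00000007613) at chr4:47353222-47414931, both on the plus strand. Nr6a1 (ENSMUSG00000063972) is at chr2:38723370-38927688, Lin28a (ENSMUSG00000050966) at chr4:134003330-134018841, Lin28b (ENSMUSG00000063804) at chr10:45376620-45486395 and Sall4 (ENSMUSG00000027547) at chr2:168748332-168767943, all on the minus strand. Exons of Lin28a share 234 bases with Gm13061 and exons of Sall4 share 526 bases with Gm14261 on the opposite strand. The use of strand in counting was not stated, so reads of those bases cannot be assigned to one gene with certainty. No other member shares exon bases with a neighbour.

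Since LIN28 proteins act on let-7, matches to the let-7 seed were counted in the regulators. All 9 let-7 family miRNAs matched in RefSeq (let-7a to let-7g, let-7i and miR-98) share the same seed, bases 2 to 8, which is in capitals in these 2 examples.
mmu-let-7a-5p: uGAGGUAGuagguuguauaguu
mmu-miR-98-5p: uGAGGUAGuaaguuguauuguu
The complement of that seed, CTACCTC, was searched on the mRNA strand of the longest annotated 3′ UTR of each member (GENCODE M21). Nr6a1 held 8 matches in 4457 bases, Lin28b 4 in 4445 bases, Lin28a 2 in 2775 bases, and Tgfbr1 and Sall4 1 each in 4154 and 1697 bases. Gdf11 (2811 bases) and Acvr2b (1534 bases) held none. Over 21037 protein-coding genes with a 3′ UTR, 9.02% held at least 1 match. Among the 1345 genes whose 3′ UTR was within a factor of 0.8 of that of Nr6a1, either way,, 24.4% held at least 1, and Nr6a1 was the only one with 8 or more. Of 1358 genes near the length of Lin28b, 4 (0.295%) held as many as it did, and of 2626 near Lin28a, 54 (2.06%). Tgfbr1 and Sall4 stood among the 23.6% and 11.4% of genes of like length with a match.

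The matches followed by an A, the base that strengthens many miRNA target sites, numbered 3 of 8 in Nr6a1, 2 of 2 in Lin28a, 1 of 4 in Lin28b, and the single ones in Tgfbr1 and Sall4. These 8 are shown, read 5′ to 3′ on the mRNA strand, with the seed match in capitals, because they hold the full 7-base match and the A.
Nr6a1, chr2:38727449-38727471, minus strand: tgttgacaaagacaaCTACCTCa
Nr6a1, chr2:38726592-38726614, minus strand: gaaaggggcattaaaCTACCTCa
Nr6a1, chr2:38723685-38723707, minus strand: aagtgcatcatgaacCTACCTCa
Lin28a, chr4:134005189-134005211, minus strand: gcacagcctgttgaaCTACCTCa
Lin28a, chr4:134004551-134004573, minus strand: gagatcgccacaaacCTACCTCa
Lin28b, chr10:45381022-45381044, minus strand: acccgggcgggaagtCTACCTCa
Tgfbr1, chr4:47410828-47410850, plus strand: aggaggctggttgttCTACCTCa
Sall4, chr2:168748940-168748962, minus strand: agggctttaatttatCTACCTCa
A match is a description of letters and not a measured site. Mature let-7 was not measured by these poly(A) libraries.

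Levels were compared between genes as RPKM (CPM per kilobase of exon). Lin28a was the most abundant of the 7 in each of the 4 groups, with a mean of 78.2 RPKM in anterior controls, 86.8 in anterior DKO, 130.4 in posterior controls and 136 in posterior DKO. In anterior controls the order below it was Tgfbr1 (30.6 RPKM), Lin28b (18), Nr6a1 (14.5), Sall4 (14.2), Acvr2b (13.7) and Gdf11 (9.04). The ranges of Lin28a and Tgfbr1 each lay clear of the next gene, those of Lin28b, Nr6a1 and Sall4 each overlapped with the next in this order, and Gdf11 lay below Acvr2b without overlap. In posterior controls Sall4 came second with 35.4 RPKM, ahead of Tgfbr1 (28.2), Gdf11 (16.7), Lin28b (15.7), Acvr2b (15.2) and Nr6a1 (11.9). There Sall4 overlapped with Tgfbr1, and Gdf11 overlapped with Lin28b, Lin28b with Acvr2b and Acvr2b with Nr6a1. The DKO groups had the same order but for Acvr2b and Sall4 in the anterior, both at 14.1 RPKM, and posterior Sall4 (39.6) stood clear of Tgfbr1 (24.8), and Gdf11 (17.5) of Lin28b (14.03). Lin28a exceeded its paralogue Lin28b by 3.75 to 6.24 times per length in the 9 anterior libraries and by 7.11 to 10.9 times in the 9 posterior ones, with no overlap between the regions.

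**Figure D1:**
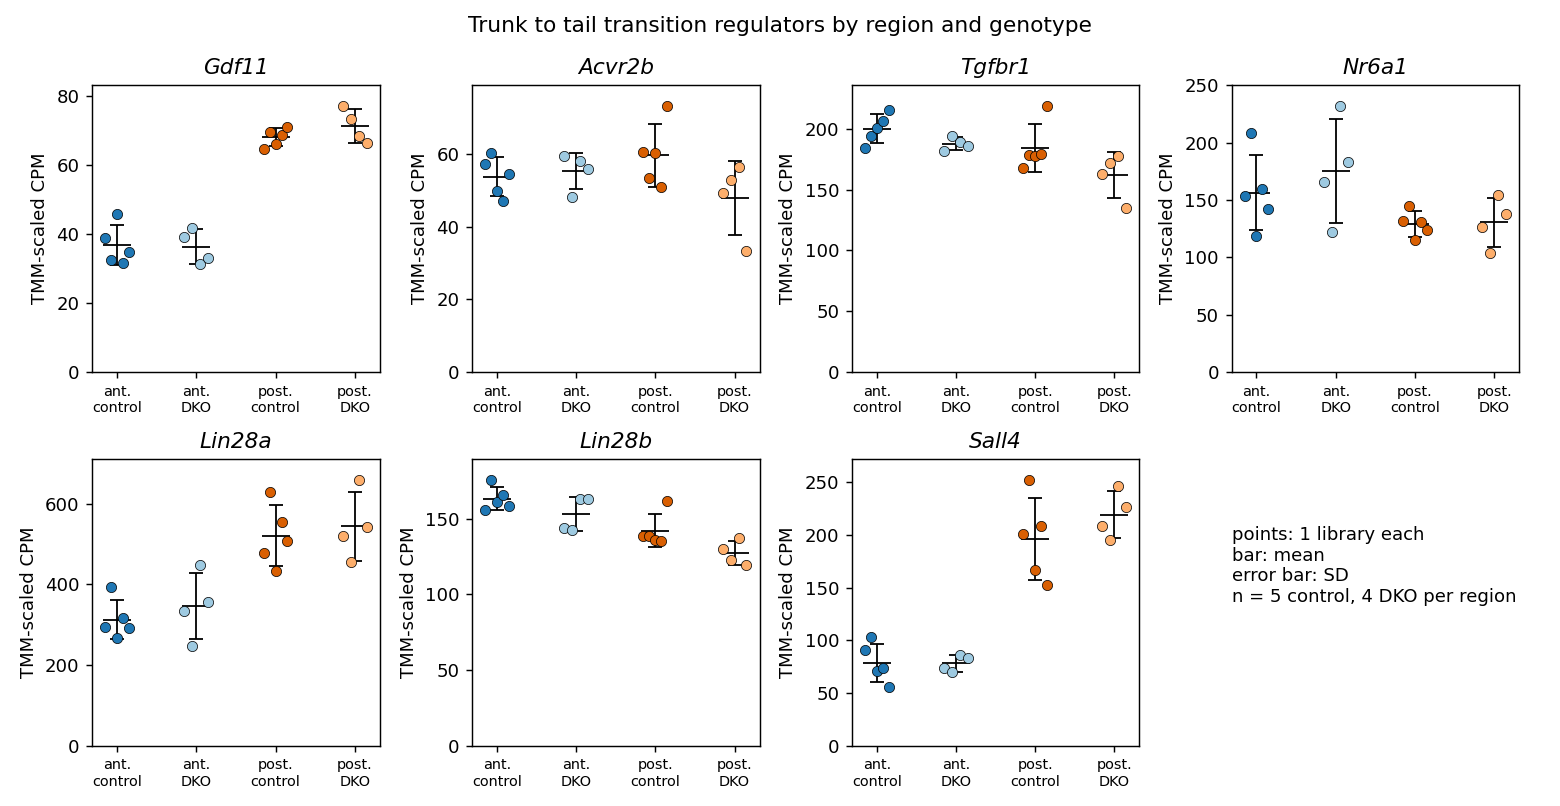
TMM-scaled CPM of each regulator on the vertical axis, by region and genotype on the horizontal axis, with 1 point per library, the mean as a bar and the SD as error bars (n = 5 control and n = 4 DKO per region). Gdf11, Lin28a and Sall4 sit higher in every posterior library than in any anterior one of the same genotype, and no gene separates DKO from control.

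The first comparison asked whether the trunk to tail regulators change when Meis1 and Meis2 are deleted. None of the 7 passed the test in either region. The ligand gene Gdf11 read 38.8, 32.6, 45.8, 31.6 and 34.8 CPM in anterior controls 1 to 5 and 39.2, 41.8, 31.3 and 33.1 CPM in anterior DKO 1 to 4. In the posterior piece it read 64.5, 69.7, 66.1, 68.7 and 71.1 CPM in controls and 77, 73.3, 68.3 and 66.4 CPM in DKO. DKO and control values overlap in both pieces. The log2 fold change was −0.01 (SE 0.118, adjusted p = 0.983) in the anterior and 0.07 (SE 0.0574, adjusted p = 0.632) in the posterior.

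Among the receptors, posterior Acvr2b had the lowest fitted ratio of the 7. It read 60.6, 53.5, 60.5, 50.9 and 73.3 CPM in posterior controls against 49.4, 53.1, 56.4 and 33.4 CPM in posterior DKO. The highest value came from control 5 and the lowest from DKO 4, and the other 7 libraries overlapped. The fitted log2 ratio was −0.31 (SE 0.146, adjusted p = 0.461). Anterior Acvr2b read 47.1 to 60.5 CPM in controls and 48.3 to 59.5 CPM in DKO (log2 fold change 0.04, SE 0.0822, adjusted p = 0.872). The type I receptor gene Tgfbr1 had the same 2 extremes in the posterior, with 168, 179, 178, 179.6 and 219 CPM in controls and 163, 172, 178 and 135 CPM in DKO. Its log2 fold change was −0.19 (SE 0.0954, adjusted p = 0.480) there and −0.09 (SE 0.0508, adjusted p = 0.480) in the anterior.

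Nr6a1 varied more between embryos of one genotype than between genotypes. It read 153, 209, 119, 159.8 and 142 CPM in anterior controls and 165, 122, 232 and 183 CPM in anterior DKO. In the posterior it read 132, 145, 115, 130.5 and 123 CPM in controls and 126, 104, 154 and 138 CPM in DKO. The DKO groups hold both the lowest posterior and the highest anterior value. The log2 fold changes were 0.16 (SE 0.182, adjusted p = 0.750) and 0.02 (SE 0.107, adjusted p = 0.963).

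Lin28a had log2 fold changes of 0.15 (SE 0.154, adjusted p = 0.726) in the anterior and 0.06 (SE 0.123, adjusted p = 0.852) in the posterior. Posterior Lin28b was the only regulator with an unadjusted p below 0.05. It read 138, 139, 136, 135 and 162 CPM in posterior controls and 130.2, 122, 137 and 119 CPM in posterior DKO, where only DKO 3 lies within the control range. Control 5 held the highest value and DKO 4 the lowest, as for the receptor genes. The fitted log2 ratio was −0.16 (SE 0.0693, unadjusted p = 0.0409, adjusted p = 0.451). Anterior Lin28b had −0.09 (SE 0.0572, adjusted p = 0.521). Sall4 had −0.02 (SE 0.149, adjusted p = 0.978) in the anterior and 0.16 (SE 0.135, adjusted p = 0.625) in the posterior.

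By edgeR's quasi-likelihood test 0 of 7 regulators were called in the anterior, beside 0.0394% of the 15238 genes tested, and 0 of 7 in the posterior, beside 0.0126% of 15936. At an unadjusted p below 0.05 the counts were 0 and 1 of 7, where 13% and 11% of all genes tested lay. DESeq2 also called 0 in each region. The median log2 fold change of the 7 was −0.01 in the anterior and 0.02 in the posterior, against 0.00 and 0.01 over all genes tested. DKO and control values overlapped for each of the 7 in both regions, while 5.08% of anterior and 4.29% of posterior genes tested had groups that did not overlap. Tests on simulated data with the same group sizes recovered a log2 change of 0.5 in 68.0% (anterior) and 39.0% (posterior) of genes. A log2 change of 1 was recovered in 90.0% and 87.0%. In the simulation 200 genes with a mean of at least 50 counts were changed at once, which eases the adjusted threshold. The real data had 6 and 2 calls, so these shares may overstate what could be detected in the regulators. The somite marker Pax1, at log2 −0.95 in the anterior and −0.92 in the posterior, was not called (adjusted p = 0.120 and 0.392).

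The interaction of region and genotype asked whether the Meis deletion acts differently in the 2 pieces. No regulator was called (adjusted p = 0.999 for each), nor was any of the 16428 genes tested (0%), while 3.45% had an unadjusted p below 0.05 and DESeq2 called 10 genes, none of the 7 among them. The lowest value among the regulators was that of Acvr2b, with a log2 difference of −0.35 (SE 0.182, unadjusted p = 0.0668). The primitive erythroid markers had a median interaction of 1.19 on the log2 scale (5 of 6 at an unadjusted p below 0.05), with median posterior over anterior ratios of −0.70 in controls and 0.50 in DKO, none of them called.

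**Figure D2:**
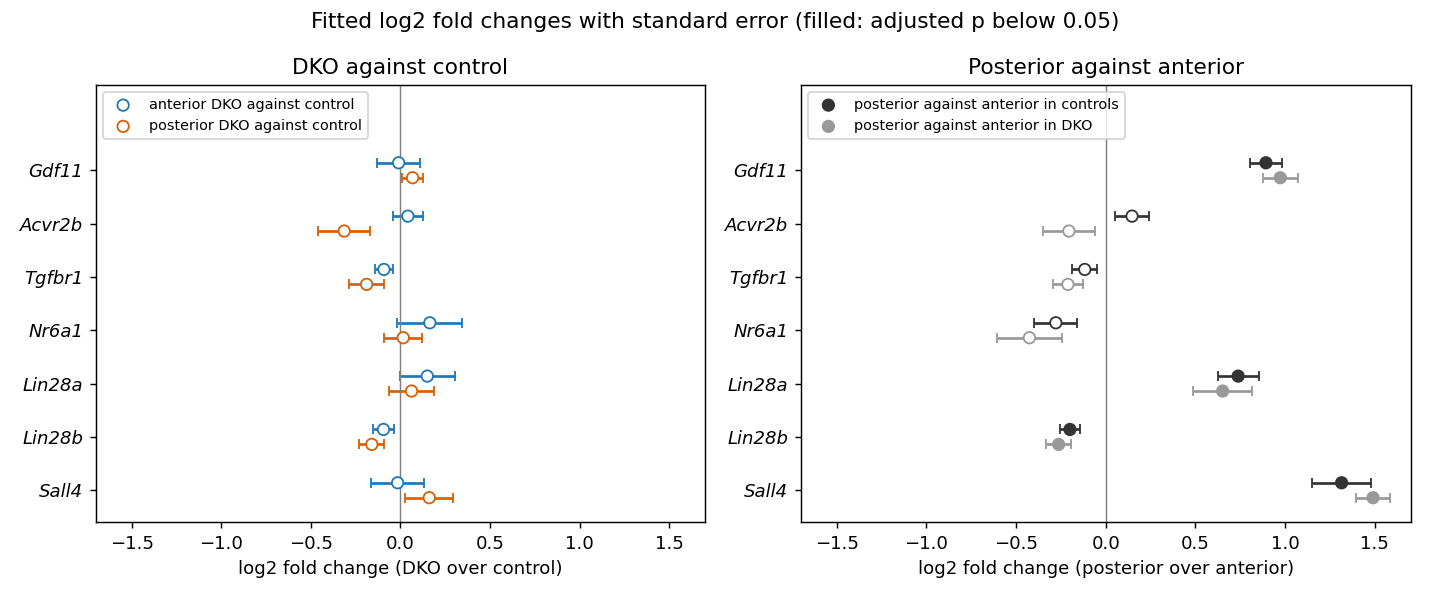
Fitted log2 fold changes on the horizontal axis with the standard error as bars, DKO over control on the left and posterior over anterior on the right, with genes on the vertical axis and filled points for an adjusted p below 0.05. All 14 DKO points are open, whereas Gdf11, Lin28a, Lin28b and Sall4 are filled in both region comparisons.

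The second comparison, posterior against anterior, asked where along the axis these genes are expressed. Gdf11, Lin28a and Sall4 were higher in the posterior piece and Lin28b slightly lower, in controls and in DKO embryos alike. In bulk pieces a difference in the share of expressing cells and one in RNA per cell cannot be told apart. The 5 axial bud markers that passed the filter within the anterior libraries (T, Fgf8, Wnt3a, Cyp26a1 and Nkx1-2) were higher in the same posterior libraries. Tbx6, Msgn1, Hes7 and Cdx2 entered only through the posterior group, where they are high. The neural tube markers were lower and those of differentiating somites mostly lower, with Lbx1 and Myh3 entering only through the anterior group. Of the 5 gut endoderm markers, 3 were higher and 1 lower in the posterior in each genotype (median log2 1.11 in controls and 0.98 in DKO). The part of these cell types in the differences was not tested. In controls 4 of 7 regulators were called (3 higher, 1 lower), beside 25.4% of the 15294 genes tested (12.1% higher, 13.3% lower). Anterior and posterior values did not overlap for 3 of 7, beside 20.1% of genes, and an unadjusted p below 0.05 was reached by 5 of 7, beside 35.5%. In DKO embryos 4 of 7 were called (3 higher, 1 lower), beside 18.5% of 15777 (8.76% higher, 9.7% lower), and 5 of 7 did not overlap, beside 23.5%. An unadjusted p below 0.05 was reached there by 6 of 7, beside 29.4%. The median log2 fold change of the 7 was 0.15 in controls and −0.21 in DKO, against −0.01 and 0.01 over all genes tested. Both medians are the value of Acvr2b, which was not called in either genotype.

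Sall4 had the largest region difference of the 7 in both genotypes. It read 90.5, 103, 70.8, 73.4 and 55.8 CPM in anterior controls 1 to 5 and 201, 252, 167, 208 and 152 CPM in their posterior pieces. The DKO embryos read 73.4, 69.6, 86.4 and 83.3 CPM in the anterior and 208, 195, 247 and 227 CPM in the posterior. The lowest posterior value, 152 CPM, was above the highest anterior value, 103 CPM. Within single embryos the posterior piece held 2.22 to 2.84 times the anterior level in controls and 2.72 to 2.86 times in DKO. The fitted change was 2.49-fold in controls (log2 1.32, SE 0.166, adjusted p = 7.99e-05) and 2.81-fold in DKO (log2 1.49, SE 0.0946, adjusted p = 5.44e-06).

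Gdf11 averaged 36.7 ± 5.77 CPM (SD, n = 5) in anterior and 68.0 ± 2.66 CPM (n = 5) in posterior controls, a 1.86-fold difference (log2 0.89, SE 0.0883, adjusted p = 1.08e-05). In DKO it averaged 36.3 ± 4.96 and 71.3 ± 4.80 CPM (n = 4 each), a 1.96-fold difference (log2 0.97, SE 0.0968, adjusted p = 8.15e-05). The posterior level was higher in 9 of 9 embryos, by 1.44 to 2.18 times. Neither receptor gene was called between the regions. Acvr2b had log2 fold changes of 0.15 (adjusted p = 0.318) and −0.21 (adjusted p = 0.399), with the posterior piece higher in 4 of 5 controls and 1 of 4 DKO embryos. Tgfbr1 averaged 200.1 ± 11.9 CPM in anterior and 184 ± 19.7 CPM in posterior controls (log2 −0.12, adjusted p = 0.272), and 188 ± 5.24 and 162 ± 19.1 CPM in DKO (log2 −0.21, adjusted p = 0.121). With the embryo as a block the control difference of Tgfbr1 passed the threshold (log2 −0.12, SE 0.0388, adjusted p = 0.0347), and the DKO difference did not.

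Lin28a and Lin28b, whose proteins both act on let-7, differed in opposite directions. Lin28a read 294, 394, 266, 317 and 291 CPM in anterior controls and 479, 629.8, 433, 556 and 507 CPM in their posterior pieces. In DKO embryos it read 335, 248, 448 and 356 CPM in the anterior and 519.9, 455, 659 and 542 CPM in the posterior. Each embryo had more in the posterior piece, by 1.60 to 1.75 times in controls and 1.47 to 1.83 times in DKO. The fitted change was 1.67-fold in controls (log2 0.74, SE 0.114, adjusted p = 0.000402) and 1.57-fold in DKO (log2 0.65, SE 0.166, adjusted p = 0.0204). The DKO call was lost without DKO 1 (adjusted p = 0.102) or DKO 4 (adjusted p = 0.0722). Lin28b was lower in the posterior by a small margin, with log2 fold changes of −0.20 in controls (SE 0.0569, adjusted p = 0.0213) and −0.26 in DKO (SE 0.0716, adjusted p = 0.0279). Its control values overlapped, at 155 to 175 CPM anterior and 135 to 162 CPM posterior. The control call was lost without any 1 of controls 1 to 4 (adjusted p = 0.0660 to 0.106) and without the filter on low counts (0.0547), and the DKO call without any single DKO embryo (0.0607 to 0.0976).

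Nr6a1 had a lower posterior level in 9 of 9 embryos, at 0.695 to 0.968 times the anterior level in controls and 0.666 to 0.850 times in DKO. The groups overlapped because of the wide spread between embryos. The main test, without a block, did not call it in controls (log2 −0.28, SE 0.121, adjusted p = 0.119) or DKO (log2 −0.43, SE 0.179, adjusted p = 0.143). It passed in 1 of 10 alternatives in controls and in 2 of 9 in DKO, the embryo block among them. With the embryo as a block the test called it in both, at log2 −0.26 (SE 0.0577, adjusted p = 0.00526) in controls and log2 −0.40 (SE 0.0712, adjusted p = 0.0044) in DKO.

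The third comparison followed the levels along somite number, from 20 to 24 somites, with the genotype as a covariate. By its definition the posterior piece held a similar number of newest somites at every stage. The anterior piece, as the rest, therefore held more somites in older embryos and reached levels formed later. The slopes thus do not follow one fixed stretch of the axis, and the part of this change in the tissue was not tested. Nr6a1 and Lin28a had the steepest fitted slopes of the 7 in the anterior piece, both downward, and Gdf11 had an upward one there. In edgeR 0 of 7 slopes passed the threshold in either region, beside 0.0328% of genes called in the anterior and 0.0126% in the posterior. At an unadjusted p below 0.05 the count was 3 of 7 in each region, where 12.9% of all genes lay in the anterior and 6.42% in the posterior. DESeq2 called 2 of 7 in the anterior (Nr6a1 and Lin28a) and 1 of 7 in the posterior (Lin28a). Embryos of 23 and 24 somites all carried Y-linked RNA (5 of 5) and those of 20 to 22 somites did not (0 of 4), so stage and sex cannot be told apart across that boundary. In simulated data slopes of 0.15 on the log2 scale per somite were recovered in 43.3% of anterior and 8.96% of posterior cases. There too 200 genes were changed at once, so these shares may be too high for the real data.

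Anterior Nr6a1 stood at 209 and 232 CPM in the embryos of 20 somites (control 2 and DKO 3), at 159.8 CPM with 21 somites and at 165 CPM with 22. It then stood at 153, 142 and 183 CPM with 23 somites and at 119 and 122 CPM with 24. The 2 youngest embryos were the highest and the 2 oldest the lowest. The slope was −0.18 on the log2 scale per somite (SE 0.0292, unadjusted p = 9.25e-05, adjusted p = 0.0723, rank 16 of 15238 genes by p), a factor of 0.883 per somite. It passed without the filter on low counts (adjusted p = 0.0028), without control 4 (0.0348), without DKO 4 (0.0269) and with DESeq2 (3.31e-07). With the sex label as a covariate it was −0.19 (adjusted p = 0.340). That label names control 1 female although it carried Y-linked RNA, so this is not a full adjustment for sex.

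Anterior Lin28a followed Nr6a1 closely, at 394 and 448 CPM with 20 somites, 317 with 21, 335 with 22, 294, 291 and 356 with 23, and 266 and 248 CPM with 24. Again the ends of the series were the extremes. The slope was −0.15 (SE 0.0251, unadjusted p = 0.000116, adjusted p = 0.0723, rank 20), or a factor of 0.901 per somite. It passed without control 4 (adjusted p = 0.0348), without DKO 4 (0.0356), without the filter on low counts (0.00359) and with DESeq2 (6.38e-07). With the same sex label as a covariate it was −0.18 (adjusted p = 0.309). In the posterior piece Lin28a went from 629.8 and 659 CPM with 20 somites to 433 and 455 CPM with 24 (slope −0.12, SE 0.0213, unadjusted p = 0.000169, adjusted p = 0.151). That slope passed without DKO 4 (adjusted p = 0.0435) and with DESeq2 (3.61e-06). Posterior Nr6a1 had a slope of −0.09 (SE 0.0258, adjusted p = 0.430).

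Gdf11 had an anterior slope of 0.10 (SE 0.0277, unadjusted p = 0.00511, adjusted p = 0.180). Its anterior level was 32.6 and 31.3 CPM with 20 somites and 45.8 and 41.8 CPM with 24. Its posterior level had no such trend, with a slope of −0.00 (adjusted p = 0.9999). Sall4 had slopes of −0.09 (SE 0.0430, adjusted p = 0.420) in the anterior and −0.11 (SE 0.0316, unadjusted p = 0.00486, adjusted p = 0.401) in the posterior. Acvr2b, Tgfbr1 and Lin28b had slopes between −0.04 and 0.01 in both regions, each with an adjusted p of 0.417 or more. In the same posterior libraries the summed axial bud markers were 548 and 604 CPM with 20 somites and 323 and 354 CPM with 24, with a median slope of −0.14 over the 9 genes tested (7 at an unadjusted p below 0.05). Several marker lists of other cell types had upward median slopes there, 0.24 for differentiating somites (5 of 6 at an unadjusted p below 0.05), 0.14 for neural tube (4 of 5), 0.16 for primitive erythroid cells (5 of 6), 0.11 for endothelium (3 of 5) and 0.33 for heart (1 of 3). Those for gut endoderm (−0.05, 1 of 5) and germ cells (−0.03, 0 of 3) were downward. In the anterior libraries the median slopes were −0.04 for the 5 axial bud markers tested (3 at an unadjusted p below 0.05, Nkx1-2 at −0.24, T at −0.11 and Cyp26a1 at 0.26), 0.03 for differentiating somites (2 of 8, Myh3 at 0.32 and Myog at 0.15), −0.02 for neural tube (2 of 5, Sox1 at −0.09 and Pax6 at −0.07), −0.08 for gut endoderm (2 of 5) and 0.24 for primitive erythroid cells (1 of 6). No marker gene passed the adjusted threshold in either region, and the part of these markers in the slopes was not tested. Slopes fitted separately in controls and DKO embryos did not differ by their own test in any of the 7 (adjusted p of 0.945 or more). In the anterior they were −0.17 and −0.20 for Nr6a1 and −0.12 and −0.18 for Lin28a.

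**Figure D3:**
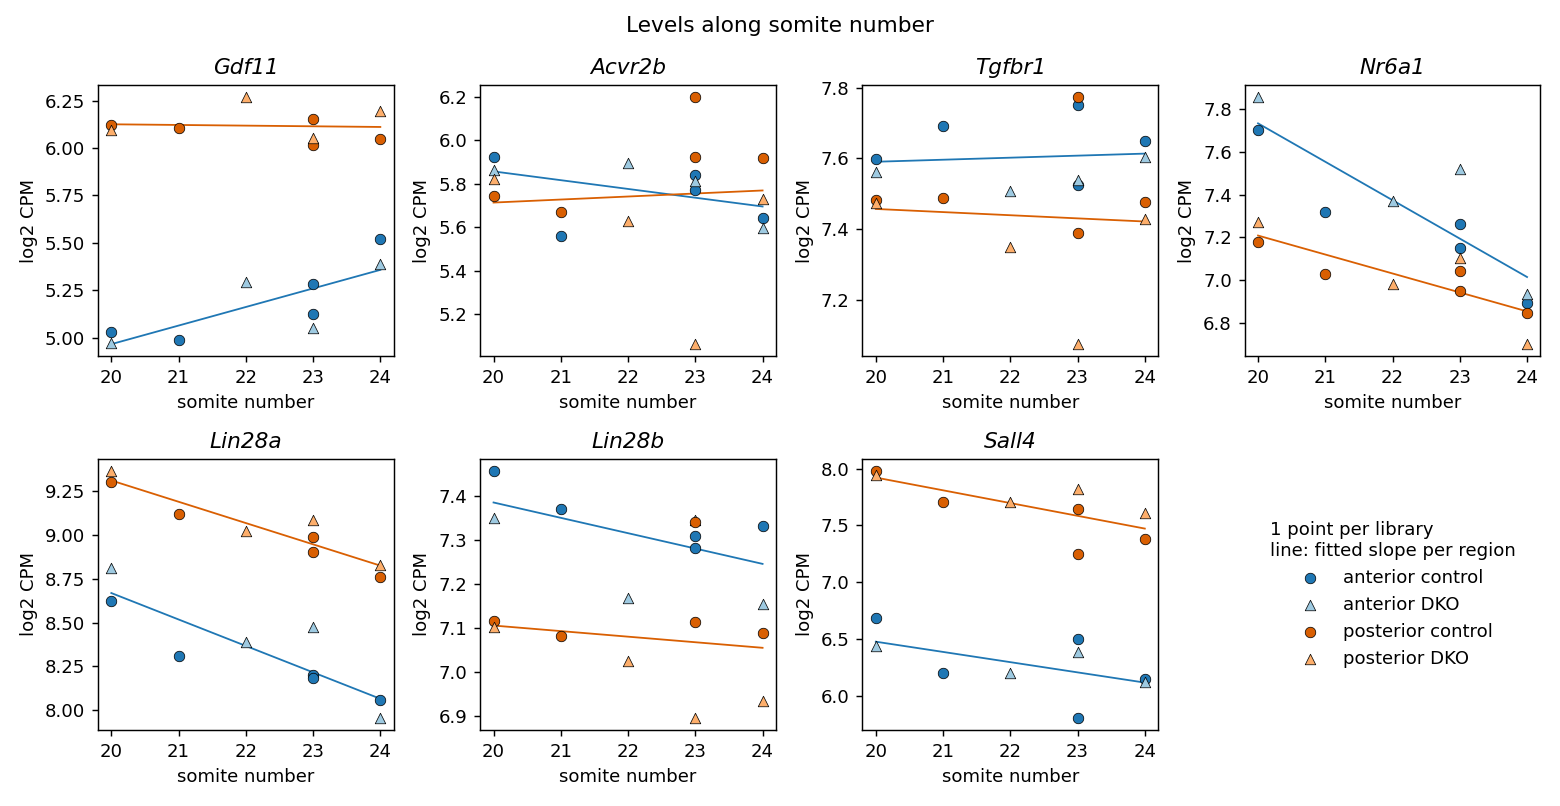
log2 CPM of each regulator on the vertical axis against somite number on the horizontal axis, with 1 point per library and 1 line per region with the fitted slope. Anterior Nr6a1 and Lin28a run from their highest values at 20 somites to their lowest at 24, and the fitted line of Gdf11 is upward in the anterior and level in the posterior.

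Over the 9 libraries of a region, described without a test, Nr6a1 and Lin28a moved together between embryos, with a Pearson r of log2 CPM of 0.984 in the anterior and 0.886 in the posterior. Gdf11 and Nr6a1 had r of −0.813 in the anterior and −0.312 in the posterior. Gdf11 also had r of −0.768 with Lin28a and −0.606 with Lin28b in the anterior (0.0262 and −0.0450 in the posterior). The receptor genes Acvr2b and Tgfbr1 had r of 0.914 in the posterior, where control 5 and DKO 4 were the extremes of both, and −0.567 in the anterior. Lin28b had the same 2 extremes in the posterior, with r of 0.835 with Acvr2b and 0.881 with Tgfbr1 (0.178 and 0.276 in the anterior). There were 21 pairs of regulators per region, and all share the same libraries, somite numbers and scaling. The part of the slopes along somite number in these values was not tested.

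Across all 18 libraries the protein-coding genes with the pattern most like each regulator were found by Pearson r of log2 CPM, which over both regions mainly reflects the region difference. For Gdf11 these were the Hox genes Hoxa9 (0.983), Hoxa7 (0.981) and Hoxc6 (0.980). Within the anterior alone the r of Gdf11 with them was 0.850, 0.907 and 0.853, and within the posterior alone 0.177, 0.198 and 0.0683. For Sall4 they were the axial bud growth factor gene Fgf3 (0.981), Zyx (0.980) and Laptm4b (0.977), and for Lin28a the monocarboxylate transporter gene Slc16a1 (0.971), Grb7 (0.966) and Smyd5 (0.957). Nr6a1 was most like Prtg, the gene of the receptor-like protein protogenin (0.940 over all, 0.988 in the anterior and 0.879 in the posterior), then Nkx2-9 (0.884) and Fhl1 (0.843). Acvr2b was most like Bptf (0.937), Srcap (0.936) and Ankrd11 (0.933), Tgfbr1 most like Akap2 (0.924), Ppp4r3b (0.922) and Zfp280d (0.919), and Lin28b most like Mtmr1 (0.907), Cep85l (0.902) and Ubr7 (0.898).

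The other genes of these pathways were taken from 4 lists of 52 genes in all. By edgeR none of them was called between DKO and control in either region. At an unadjusted p below 0.05 there were 0 of 16 genes tested in the anterior and 1 of 15 in the posterior for the GDF11 list, 6 and 4 of 13 for the LIN28 and let-7 list, 4 of 4 (Sall1, Sall2, Sall3 and Sox2, each with a positive log2 ratio of 0.14 to 0.31) and 2 of 7 for the SALL list, and 0 of 1 and 1 of 8 for the tail-side genes, beside 13% of all genes tested in the anterior and 11% in the posterior. In the same anterior libraries the 5 neural tube markers summed to 229.7 to 278 CPM in controls and 297 to 338 CPM in DKO, without overlap (median log2 ratio 0.38, 4 of 5 at an unadjusted p below 0.05). In the posterior they summed to 92.9 to 161 and 124 to 185 CPM, with overlap (median 0.31, 1 of 5). The 6 primitive erythroid markers had a median log2 ratio of −0.67 in the anterior (0 of 6 at an unadjusted p below 0.05) and 0.52 in the posterior (5 of 6). Also at an unadjusted p below 0.05 were 4 of 8 markers of differentiating somites in the anterior (Pax1 at −0.95, Pax9 at −0.45, Lbx1 at −1.07 and Myf5 at 0.80), 2 of 3 heart markers tested in the anterior (median −0.75) and 3 of 5 gut endoderm markers in the posterior (median 0.30). In the posterior 1 of 6 markers of differentiating somites reached that level (Pax1 at −0.92). No marker gene passed the adjusted threshold in these comparisons, and the part of these markers in the values was not tested. The calls between regions that follow stand beside 12.1% of all genes higher and 13.3% lower in posterior controls, and 8.76% higher and 9.7% lower in posterior DKO. Of the GDF11 and activin-type signalling list, 4 of 15 genes tested were higher and 0 lower in posterior DKO (median log2 fold change −0.02). In controls Mstn was tested as well, but only through the anterior group, where it is higher, so no count or median of the list is given there. Smad7, an inhibitory SMAD, was 8.52 CPM in anterior and 15.98 CPM in posterior controls (log2 0.91, adjusted p = 0.000465), with a log2 fold change of 1.07 in DKO (adjusted p = 0.000385). Pcsk5, a proprotein convertase that can activate GDF11, was 13.7 and 23.3 CPM (log2 0.76, adjusted p = 0.000329), with 0.94 in DKO (adjusted p = 0.00108). Furin, a related convertase, had 0.52 in controls (adjusted p = 0.00168) and 0.43 in DKO (adjusted p = 0.0105), the latter lost without DKO 2 (0.0685) or DKO 3 (0.0540). The type I receptor gene Acvr1b was higher in posterior controls (0.37, adjusted p = 0.0117, lost without control 5 at 0.0599). The type II receptor gene Tgfbr2 was lower (−0.38, adjusted p = 0.0440), a call lost without any single control embryo (0.0669 to 0.101). Fstl3, with few counts, was also higher in posterior controls. Mstn, the gene of the ligand myostatin and nearest relative of Gdf11, was 3.25 CPM in anterior controls and 0.0121 CPM in posterior controls, where no library had more than 1 count.

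Fst, whose secreted product follistatin binds and inhibits activins and GDF11, was the only list gene with a called slope. In the anterior piece it read 50.4 and 60.0 CPM with 20 somites (control 2 and DKO 3), 40.3 with 21, 42.8 with 22, 31.9, 35.1 and 35.5 with 23, and 23.2 and 27.4 CPM with 24. The values are in order along the series but for the embryo of 22 somites, which lies above that of 21. The slope was −0.25 on the log2 scale per somite (SE 0.0246, factor 0.839, adjusted p = 0.0141), with the smallest p of the 15238 genes. The call was lost without control 2 (adjusted p = 0.137), DKO 2 (0.0658) or DKO 3 (0.109), all embryos at the ends of the series. It was also lost with the sex label as a covariate (−0.26, adjusted p = 0.221), a label that differs from the Y-linked RNA in control 1. Slopes fitted by genotype were −0.23 in controls (adjusted p = 0.373) and −0.28 in DKO (adjusted p = 0.128), neither of them called. In the posterior piece Fst read 27.9 to 38.1 CPM (slope −0.04, adjusted p = 0.967).

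Of the LIN28 and let-7 list, 5 of 13 genes tested were higher and 1 lower in posterior controls (median log2 0.13), and 2 of 13 were higher and 0 lower in posterior DKO (median 0.01), near the 18.5% of all genes called there. Arid3b and Hmga2, both known let-7 targets and chromatin proteins, led the list in both genotypes. Arid3b was 66.7 CPM in anterior and 211 CPM in posterior controls (log2 1.66, adjusted p = 1.85e-08), with 1.40 in DKO (adjusted p = 6.49e-05). Hmga2 was 464 and 732 CPM (log2 0.66, adjusted p = 2.15e-05), with 0.69 in DKO (adjusted p = 1.27e-05). Their longest 3′ UTRs held 1 and 4 matches to the let-7 seed. Mycn was higher in posterior controls (0.45, adjusted p = 0.000801) and held no match. The RNase gene Drosha (0.23, adjusted p = 0.00184) and Dicer1 (0.14, adjusted p = 0.0226) were also higher, and Dis3l2, whose product degrades precursor let-7 tailed under LIN28 control, was lower (−0.21, adjusted p = 0.0351). The Dicer1 and Dis3l2 calls were lost on leaving out single control embryos (adjusted p of up to 0.0970 and 0.136). Trim71 and Igf2bp1, with 4 matches each, were not called in either genotype.

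Of the 9 genes of the SALL and pluripotency-network list, Sall1, Sall2, Sall3 and Sox2 passed the filter in the anterior libraries too. Pou5f1 was tested between regions through the posterior group, where it is higher, and so were Nanog and Utf1 in DKO, so no count or median of the list is given. Like Sall4, its paralogues Sall1 (84.7 and 253 CPM in anterior and posterior controls, log2 1.58, adjusted p = 5.64e-08) and Sall3 (29.9 and 62.2 CPM, log2 1.05, adjusted p = 6.42e-07) were higher in the posterior, with 1.46 (adjusted p = 1.96e-05) and 0.83 (adjusted p = 0.00162) in DKO. Sox2, a stem cell and neural progenitor factor, was lower in the posterior in controls (−0.70, adjusted p = 1.68e-05) and DKO (−0.62, adjusted p = 0.000291), as was Sall2 in DKO (−0.29, adjusted p = 0.0171), a call lost without DKO 1, 3 or 4 (0.0571 to 0.117). Sall2 had the opposite sign to Sall1, Sall3 and Sall4. By level, the pluripotency gene Pou5f1 was at 0.0865 CPM in anterior and 1.54 CPM in posterior controls.

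The tail-side genes, which act in tail, cloacal and hindlimb tissue, have 9 members, of which Isl1 alone passed the filter on low counts within the anterior libraries. The others that were tested between regions entered through the posterior group, where they are high, so their levels are given without a count of calls. Isl1 averaged 11.3 CPM in anterior and 24.0 CPM in posterior controls (log2 1.10, adjusted p = 0.000815), and was not called in DKO (log2 0.63, adjusted p = 0.223). Hoxd11 averaged 0.0958 CPM in anterior and 45.4 CPM in posterior controls, Hoxd13 0.195 and 34.5 CPM, Hoxc11 0.0155 and 18.03 CPM, and Tbx4, a hindlimb gene, 0.106 and 19.5 CPM. Hoxa13 had 0 counts in all anterior libraries and averaged 5.83 CPM in posterior controls. Gdf11, by contrast, had at least 31.3 CPM in every anterior library.

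**Figure D4:**
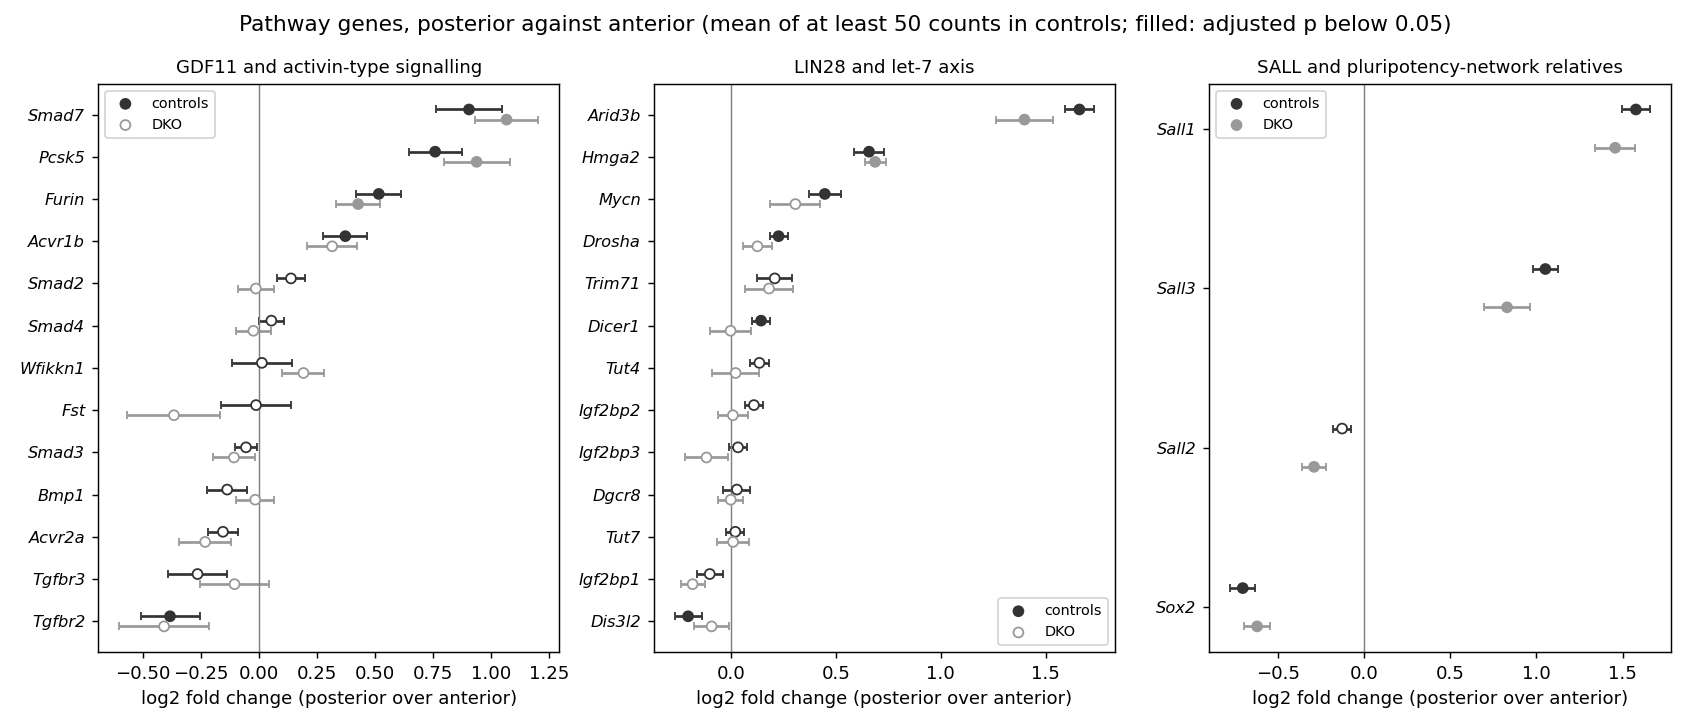
Fitted log2 fold changes of posterior over anterior on the horizontal axis with the standard error as bars, for genes of 3 pathway lists with a mean of at least 50 counts in controls on the vertical axes, controls in black and DKO in grey, and filled points for an adjusted p below 0.05. Smad7 and Pcsk5, Arid3b and Hmga2, and Sall1 and Sall3 are higher in the posterior in both genotypes, while Sox2 is lower in both.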

How the data were processed

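The authors deposited 1 table of RSEM expected counts per Ensembl gene for GRCm38, not scaled between libraries. Per the submitters' processing notes, CASAVA, cutadapt and RSEM were used. The aligner, versions and strand setting are not given in the sources used here. Of 53465 identifiers 53360 were found in GENCODE M21, which gave symbols, coordinates and exon lengths.

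Expected counts were rounded and fitted in R 4.3.3 with edgeR 4.0.16 (filterByExpr with minimum count 10 and minimum total count 15, TMM scaling, glmQLFit and glmQLFTest), with Benjamini-Hochberg adjustment over all genes tested and a threshold of 0.05. DKO was compared with control within each region, and regions within each genotype. Slopes used somite number and genotype. SE is the size of the log2 fold change divided by the square root of F. CPM and RPKM used TMM-scaled library sizes, and log2 CPM a prior count of 2. P-values measure the spread between libraries of a group, each from a different embryo. The main region and interaction tests treat the 2 pieces of an embryo as independent. Floors cover counting error only.

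Embryos were paired across regions by genotype, sex label and somite number. Deviations from group means had r of 0.437 to 0.768 within the 9 embryos and −0.421 to 0.127 between embryos of a genotype, so the embryo served as a block in an alternative, quoted beside results it changed. DESeq2 1.42.0 and other settings were alternatives. The regulators were always named. Called list genes were named if they averaged 50 counts or more, up to 5 per direction by size of change. Others named (Mstn, Fstl3, Pou5f1, Trim71, Igf2bp1) were chosen after their values were seen. Members and lists were chosen with earlier results of these data known.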

Additional observations from a re-analysis of the deposited data

Results flagged for a closer look

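Posterior control 5 stood apart in 2 of the 28 groups of values examined. Its Tgfbr1 level was 219 CPM, where the next highest posterior control had 179.6 CPM. Its Lin28b level was 162 CPM, where the next highest had 139 CPM. In each case the gap to the nearest embryo took up a larger share of the group's range than Dixon's 95% limit allows. Chance flags about 1 in 20 groups.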

How the results depend on the processing

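Each regulator had at least 538 counts in every library, and each group had 4 or 5 embryos. Over all alternatives for the regulators and Fst, 620 values kept direction and call, 14 gained and 17 lost a call, and 30 changed sign, none of them a call. No alternative called a regulator between DKO and control.

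Counts of all genes called varied widely. The 6 anterior DKO calls became 296 with DESeq2, 83 without the filter, 84 with somite number as a covariate, 19 with all 18 libraries in one fit, and 1 (without DKO 1) to 57 (without DKO 2) on leaving out 1 embryo. The 2 posterior DKO calls became 162, 14, 7 and 51 in the same order, 1 with a filter at a mean of 50 counts, and 2 to 24 (without DKO 2) on leaving out 1 embryo. The interaction had 10 calls with DESeq2 and 0 to 1 without 1 embryo. Region calls in DKO fell from 2913 to between 1728 (without DKO 1) and 2550. The 5 anterior slope calls became 359 with DESeq2, 162 without the filter, 9 if 50 counts on average were required, 0 with the sex label as a covariate (chosen after seeing the data) and 0 to 134 (without control 4) without 1 embryo. The 2 posterior ones became 147, 29 without the filter, 0 with the sex label and 0 to 29 (without DKO 4). The causes were not tested.

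Of the regulators, region calls in DKO numbered 4, and 2 to 4 without 1 embryo (2 without DKO 1 or DKO 4). Anterior slope calls numbered 2 with DESeq2, 2 without the filter and 0 to 2 without 1 embryo. Posterior ones numbered 1 with DESeq2 and 0 to 1 without 1 embryo. The embryo as a replicate block raised the regulators called between regions from 4 to 6 in controls and from 4 to 5 in DKO and changed no other call of theirs.

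Values near 0 changed sign without 1 embryo, with these log2 ranges. Anterior DKO values spanned −0.081 to 0.078 for Gdf11, −0.0040 to 0.102 for Acvr2b and −0.116 to 0.103 for Sall4. Posterior DKO values spanned −0.074 to 0.113 for Nr6a1 and −0.043 to 0.140 for Lin28a. The Gdf11 interaction spanned −0.027 to 0.138. The anterior slope of Tgfbr1 spanned −0.00069 to 0.012, and was −0.030 with the sex label. Posterior slopes spanned −0.019 to 0.0019 for Gdf11, −0.011 to 0.080 for Acvr2b, −0.025 to 0.019 for Tgfbr1 and −0.026 to 0.0070 for Lin28b. In DKO embryos alone they were 0.012 for Gdf11 and −0.066 for Acvr2b, and in controls alone 0.015 for Tgfbr1 and 0.017 for Lin28b.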
